A study of Mus musculus with 4 samples.

Results

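The genes described here are 10 chaperones and co-chaperones of the heat shock response, Hspa1a, Hspa1b, Hspa8, Dnajb1, Hsph1, Bag3, Hsp90aa1, Hspb1, Hspe1 and Hspd1, of 31053 genes in the deposited matrices. They were taken by gene symbol, and each had a row. Cells came from the stromal vascular fraction of mouse fat, the cells that remain once the mature adipocytes have been removed, and were profiled with 10x Chromium 3′ v3 kits. The mice were C57BL/6, 8 weeks old, and the tissue was the fourth inguinal white fat pad, which encloses mammary ducts in females. The cold group had spent 24 h at 4 °C (2 libraries) and the RT group the same time at room temperature (2 libraries), with no other treatment or allele given. All 4 libraries went through the same warm collagenase digestion, so every cell, cold or RT, had been brought to digestion temperature before its RNA was captured. The labels state neither the room temperature, nor the sex of the animals, nor how many went into a library. The p-values therefore reflect the spread of these libraries alone, which may be technical. The question taken up was whether the effect of cold on these genes differed between stromal, immune and epithelial cells.

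Heat shock chaperones hold unfolded proteins in solution, refold them or pass them on to degradation. When unfolded protein builds up, the transcription factor HSF1 is set free, binds inverted GAA repeats called heat shock elements and switches on the inducible chaperones within minutes. Hspa1a and Hspa1b encode the stress-inducible HSP70, and Hspa8 encodes HSC70, its constitutive relative. Dnajb1 is a J-domain protein that delivers clients to HSP70 and speeds its ATP hydrolysis, while Hsph1 (HSP110) and Bag3 help HSP70 to release ADP. Hsp90aa1 is the inducible cytosolic HSP90, Hspb1 the small heat shock protein HSP27, and Hspd1 and Hspe1 form the HSP60 and HSP10 chaperonin of the mitochondrial matrix. These genes are also known to respond to tissue dissociation.

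Promoter sequence is shown first, because members that share an element did not all move together. In the RefSeq promoter table (GRCm38.p6, from 250 bases before to 50 bases after each start), the core GAANNTTC, which reads the same on both strands, was in 7.86% of 32851 windows of 27025 genes, and 3 alternating units (GAANNTTC followed by NNGAA or preceded by TTCNN, on either strand, so that each such match also holds the core) were in 0.603%. Of the 8 members with an entry, 7 had the core in a window and Dnajb1 did not in either of its windows, which says only that these letters are absent there. Hspa8 and Hsp90aa1 were not in the table. The stretches below run from 26 bases before the first capital to the last base before the start, except for Hsph1, whose element lies after the start, and capitals mark the core and any alternating unit next to it.
Hspa1a, chr17:34972157-34972286, minus strand: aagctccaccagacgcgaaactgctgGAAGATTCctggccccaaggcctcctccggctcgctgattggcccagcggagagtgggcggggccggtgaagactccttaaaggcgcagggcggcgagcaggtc
Hspa1b, chr17:34959239-34959368, minus strand: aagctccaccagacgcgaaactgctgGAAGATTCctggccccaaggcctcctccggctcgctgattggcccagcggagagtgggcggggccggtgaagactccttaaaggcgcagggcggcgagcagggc
Hspb1, chr5:135887776-135887918, plus strand: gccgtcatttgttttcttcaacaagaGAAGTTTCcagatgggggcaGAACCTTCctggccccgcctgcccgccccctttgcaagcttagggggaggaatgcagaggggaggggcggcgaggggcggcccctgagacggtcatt
Hspe1, chr1:55088033-55088147, plus strand: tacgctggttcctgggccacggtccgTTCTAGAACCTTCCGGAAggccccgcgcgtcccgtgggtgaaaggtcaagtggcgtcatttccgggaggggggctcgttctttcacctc
Hsph1, chr5:149636282-149636311, minus strand: aatgctgcagaTTCTGGAAAGTTCtcctca
Hspa1a and Hspa1b, neighbours on chromosome 17, had the core at the same place, with its first base 104 bases before the start (at -104), and their windows differed at 4 of 300 bases. Hspe1 and Hspd1 lie head to head on chromosome 1 and share one promoter, so the run of alternating units printed for Hspe1 also stood in a window of Hspd1, on the other strand, from base -144. Bag3 had 1 core, from base 42 after the start. Hspa1a and Hspa1b share much of their coding sequence, yet 0% of the 50-base words in the last 400 bases of either transcript occurred in the other, against 58.8% over the whole Hspa1a transcript. A 3′ library reads mainly that last stretch. How the authors' counting treated reads that fit both copies is not known here, and values of either copy alone are uncertain to that extent.

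The 4 libraries held 35198164 to 55160902 UMIs (unique molecular identifiers, one per captured RNA molecule). After filters on genes, mitochondrial share and doublets, the cold libraries kept 3929 and 2971 cells, and the RT libraries 5232 and 3065 cells. Median depths were 6750 and 7595 UMIs in cold and 6846.5 and 7467 UMIs at RT. Of 40 clusters, 13 cell classes were named from marker genes and held 13554 of 15197 cells. The names mean only that cells resembled a type in these markers, each of which was detected in its class. Levels are in CPM, UMI counts of a gene summed over the cells of 1 class in 1 library and scaled to the total of that sum. These levels are relative to the RNA captured in the class. Of the classes, 9 had at least 20 cells in each library and were tested one by one with edgeR's quasi-likelihood F-test, two-sided, with Benjamini-Hochberg adjustment over all genes tested in the class at 0.05. Between 5 and 10 cell barcodes were shared by any pair of libraries. Among the clustered genes were Hspa1a, Dnajb1, Hsph1 and Hspb1, so classes were also formed without the chaperone and stress lists as an alternative. Libraries stood apart in some classes. In luminal alveolar progenitors the median cell had 3383 and 4175 UMIs in cold, against 12298 and 11906 at RT, and of the 2 clusters of luminal hormone-sensing cells the one led by Upk3a came mostly from RT replicate 1.

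Members rose in cold in 4 of the 9 tested classes, fibroblasts, dendritic cells, NK cells and T cells. None was called in the other 5, which include both luminal classes, and Hspe1 and Hspd1 were called in none of the 9. In fibroblasts and adipose progenitors 6 of 10 members rose, against 0.792% of 11618 genes. In dendritic cells 5 of the 9 tested rose, against 0.191% of 7848 genes, in NK cells 4 of the 8 tested rose, against 0.71% of 4368 genes, and in T cells 2 of 10 rose, against 0.257% of 9712 genes. No member was called lower in any of the 9 classes. In each luminal class 8 of 10 estimates lay below 0 and 2 above. Both cold libraries lay below both RT libraries for 5 members in hormone-sensing cells and 4 in alveolar progenitors, and above for 0. In NK cells 1 member lay below in this way and 6 above, and in B cells 2 below and 4 above. The share of all genes set apart in this way is not given here. The median log2 fold change over the members tested was 1.07 in fibroblasts, 1.08 in dendritic cells, 0.87 in NK cells and 0.33 in T cells, where the median over all genes was at most 0.01. In the other 5 classes edgeR called 0 members, and the median was 0.81 in B cells, 0.60 in endothelium, 0.35 in macrophages, -0.26 in hormone-sensing cells and -0.47 in alveolar progenitors. The counts at an unadjusted p under 0.05 were 8 in vascular endothelium, 5 in B cells, 4 in macrophages and monocytes, 3 in alveolar progenitors and 1 in hormone-sensing cells, the last 4 of them lower in cold. DESeq2 called 4 in macrophages, 1 in endothelium and 0 in the other 3. The shares of all genes called in these 5 classes, in either direction, were 0% of 10408 in endothelium, 0.242% of 6601 in B cells, 0.126% of 11089 in macrophages, 0.421% of 7357 in alveolar progenitors and 0.00794% of 12590 in hormone-sensing cells.

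Several of these counts changed when 1 library was left out. Such a fit has 1 library in a group and less information on spread. A call can then end without a smaller change, as for Hspa1a in dendritic cells (2.69 with all libraries, 2.82 without RT replicate 1). The number of all genes called moved as well over the alternatives. It ranged from 16 to 1447 in fibroblasts, 0 to 456 in endothelium, 0 to 134 in B cells, 1 to 1040 in macrophages and 0 to 516 in alveolar progenitors. The shares of all genes called with a library left out are not given here. The member counts below therefore do not say whether the members moved more than other genes. Without cold replicate 1, 1 member was called in fibroblasts, and without RT replicate 1 or RT replicate 2, 0 were called in dendritic cells, where 0 to 321 genes were called over the alternatives. T cells kept 2 calls or more whichever library was left out, with 5 without cold replicate 2, and NK cells kept 3 or 4. Without RT replicate 1, 5 members were called in endothelium, 3 in B cells and 2 in macrophages. Without RT replicate 2, 2 were called in endothelium and 2 in alveolar progenitors, both lower in cold. Without cold replicate 1 B cells had 1 call, and without cold replicate 2 they had 5. In hormone-sensing cells 0 members were called with any library left out.

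**Figure D1:**
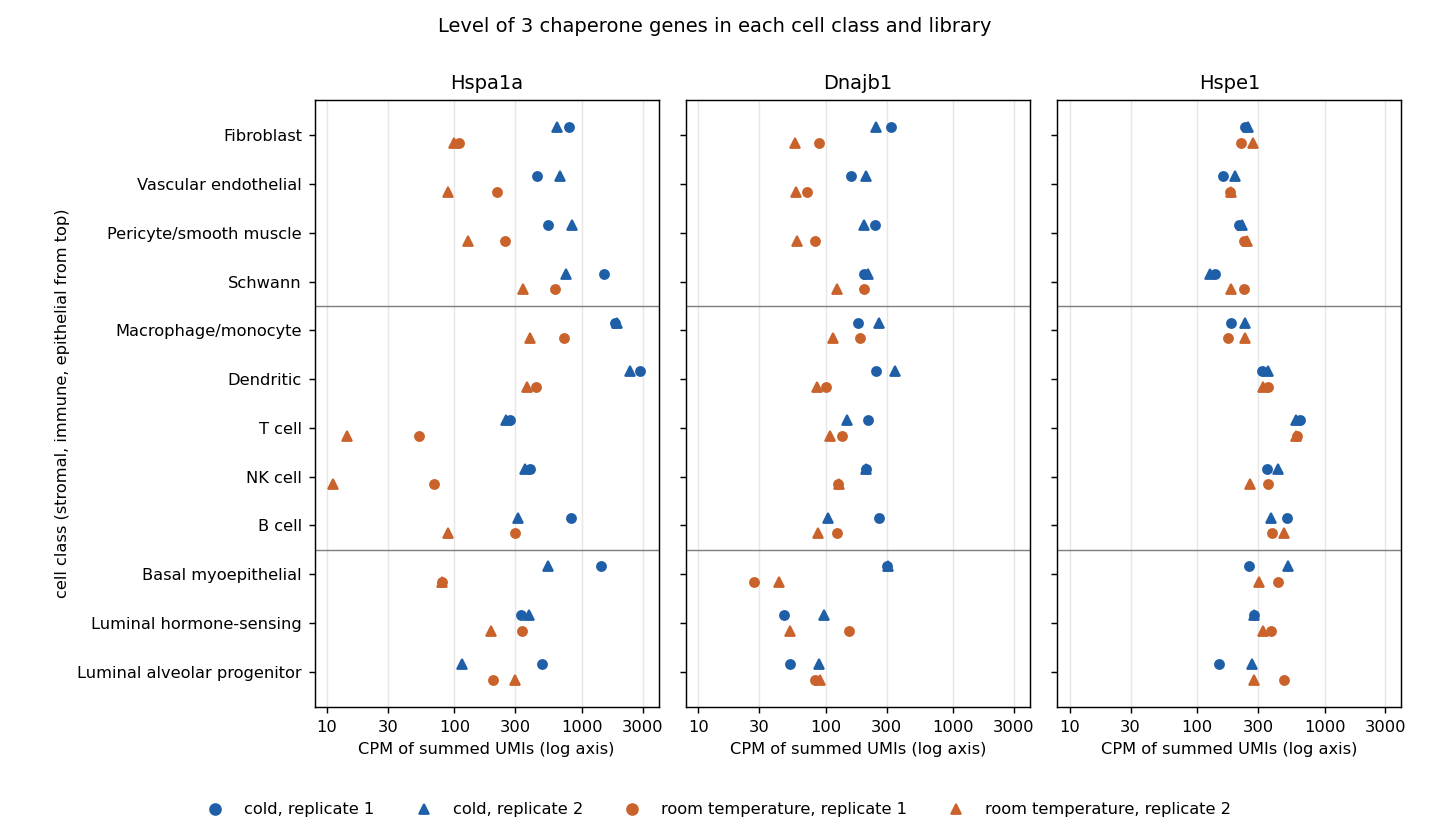
Level of Hspa1a, Dnajb1 and Hspe1 (CPM of UMIs summed per class and library, log axis) in 12 cell classes, stromal, immune and epithelial from the top; each point is 1 library, blue for cold and orange for room temperature. Hspa1a lies higher in both cold libraries in fibroblasts (799 and 642 CPM in cold, against 109 and 98.5 CPM at RT), overlaps in both luminal classes, and Hspe1 overlaps in fibroblasts.

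The inducible HSP70 genes Hspa1a and Hspa1b showed the largest changes among the members in the 4 classes where members were called. In fibroblasts Hspa1a (ENSMUSG00000091971, chromosome 17, 34969190 to 34972156) had 799 and 642 CPM in the cold libraries, against 109 and 98.5 CPM in the RT libraries. Hspa1b (ENSMUSG00000090877, chromosome 17, 34956436 to 34959238) had 214 and 264 CPM in cold, against 52.9 and 31.9 CPM at RT. Both cold libraries stood several-fold above both RT libraries for each copy. Hspa1a averaged 721 ± 111 CPM in cold and 104 ± 7.08 CPM at RT (SD, n = 2 each), a log2 fold change of 2.84 (SE 0.18, adjusted p = 0.0122, edgeR), and Hspa1b rose by 2.48 (SE 0.25, adjusted p = 0.0218). Without cold replicate 1 Hspa1a kept its call and Hspa1b did not (adjusted p = 0.0503, edgeR).

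Dendritic cells, which sample antigen in tissue, had the highest Hspa1a level of the tested classes in cold. Hspa1a stood at 2849.7 and 2396 CPM in cold, against 437 and 373 CPM at RT, and Hspa1b at 844 and 919 CPM in cold, against 153 and 118 CPM at RT. The groups lay far apart for both copies, with log2 fold changes of 2.69 (SE 0.15, adjusted p = 0.000218) and 2.70 (SE 0.18, adjusted p = 0.000385, edgeR). Without RT replicate 1 the fold changes were 2.82 and 2.91 and no longer called (adjusted p = 0.516 each), and without RT replicate 2 they were 2.58 and 2.51 (adjusted p = 0.94 each). Both NK cells and T cells had little HSP70 RNA at RT. In NK cells Hspa1a stood at 391 and 360.5 CPM in cold, against 69.0 and 11.1 CPM at RT (log2 fold change 3.51, SE 0.40, adjusted p = 0.00025), and Hspa1b at 222 and 176 CPM, against 32.9 and 14.8 CPM (3.19, SE 0.34, adjusted p = 0.000129). DESeq2 gave Hspa1a 3.28 in NK cells with no call (adjusted p = 0.343). In T cells Hspa1a stood at 273 and 254 CPM in cold, against 52.9 and 14.2 CPM at RT (3.03, SE 0.41, adjusted p = 0.0167), and Hspa1b at 136 and 124 CPM, against 33.1 and 15.3 CPM (2.46, SE 0.27, adjusted p = 0.00718). RT replicate 2 was the lowest library in both lymphocyte classes, and the groups did not overlap.

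The same separation without a call was seen in 3 further classes. Macrophages and monocytes had 1811 and 1893 CPM of Hspa1a in cold, against 727 and 389 CPM at RT (log2 fold change 1.71, 95% interval 0.95 to 2.46, adjusted p = 0.144, edgeR). RT replicate 1 was well above RT replicate 2 in these cells, and without RT replicate 1 Hspa1a (2.25, adjusted p = 0.01) and Hspa1b (2.33, adjusted p = 0.01) were called. Vascular endothelium had 447 and 676 CPM in cold, against 215 and 88.7 CPM at RT (1.92, interval 0.94 to 2.91, adjusted p = 0.209), and was called without RT replicate 1 (2.66, adjusted p = 0.00741) and without RT replicate 2 (1.44, adjusted p = 0.0117). B cells had 819.9 and 313 CPM in cold, against 298 and 88.7 CPM at RT (1.62, interval 0.63 to 2.61, adjusted p = 0.26), so that cold replicate 2 and RT replicate 1 were close. In B cells Hspa1a was called without RT replicate 1 (2.71, adjusted p = 4.9e-05) and without cold replicate 2 (2.18, adjusted p = 0.00549). In all 3 classes, RT replicate 1 was the higher RT library.

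In both luminal classes the HSP70 libraries overlapped, though not in every luminal cluster. Luminal hormone-sensing cells, which carry the oestrogen and prolactin receptors of the duct, had 333 and 382 CPM of Hspa1a in cold, against 339 and 194 CPM at RT. Luminal alveolar progenitors, the precursors of milk-secreting cells, had 489 and 116 CPM in cold, against 201 and 301 CPM at RT. Cold and RT libraries overlapped in both. The log2 fold change was 0.43 in hormone-sensing cells (interval -0.39 to 1.25) and 0.14 in alveolar progenitors (interval -0.94 to 1.23), so a change of the size seen in fibroblasts lay outside both intervals. In alveolar progenitors, clustering at resolution 2 gave 1.11 for Hspa1a with a call (adjusted p = 0.0396, edgeR). Hspa1b overlapped as well, at 0.55 in hormone-sensing cells and 0.35 in alveolar progenitors. By cluster, with no test, both copies overlapped in the Prlr cluster and the alveolar cluster. In the Upk3a cluster both cold libraries stood above RT, with log2 ratios of group means (plus 5 CPM) of 1.10 for Hspa1a and 1.08 for Hspa1b. The same held in the cluster led by Wfdc18 with both luminal marker sets, which entered neither class (0.70 and 0.68). At RT the mean Hspa1a level was 266 ± 102 CPM in hormone-sensing cells and 250.8 ± 70.8 CPM in alveolar progenitors, against 104 ± 7.08 CPM in fibroblasts (SD, n = 2 each).

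Hspa8, the constitutive HSP70, moved little beside its inducible relatives. In fibroblasts Hspa8 (chromosome 9, 40800984 to 40810087) had 1895 and 1588 CPM in cold, against 1209.7 and 1302 CPM at RT, apart but with a log2 fold change of 0.52 that did not pass (SE 0.16, adjusted p = 0.158, edgeR). Its fold change lay between -0.57, in alveolar progenitors, and 0.52 over the 9 tested classes, and it was called in none of them. By edgeR it was under an unadjusted p of 0.05 in fibroblasts, NK cells and endothelium. It was called in fibroblasts without the low-count filter (adjusted p = 0.0424) and in B cells without cold replicate 2 (0.81, adjusted p = 0.0143).

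Of the partners of HSP70, Dnajb1 and Hsph1 rose in some classes and Bag3 in none of the 9. In fibroblasts Dnajb1 (chromosome 8, 83608193 to 83612653) had 325 and 249 CPM in cold, against 88.4 and 57.1 CPM at RT, a rise of 2.00 on the log2 scale (SE 0.26, adjusted p = 0.0248, edgeR). In dendritic cells it had 248 and 349 CPM in cold, against 101 and 85.1 CPM at RT, and rose by 1.68 (SE 0.21, adjusted p = 0.0181). Both cold libraries lay above both RT libraries in each class. The fibroblast call ended without cold replicate 1 (1.76, adjusted p = 0.0883) and the dendritic call without RT replicate 1 (1.81, adjusted p = 0.983), without RT replicate 2 (1.56, adjusted p = 0.94) and at resolution 2. In T cells, where Hspa1a rose by 3.03, Dnajb1 stood at 215 and 146 CPM in cold, against 133 and 107 CPM at RT, a change of 0.56 that did not pass (adjusted p = 0.231), though it did without cold replicate 2 (0.87, adjusted p = 0.00105). In NK cells it stood at 206 and 208 CPM in cold, against 125 and 128 CPM at RT (0.75, SE 0.22, adjusted p = 0.106). Hormone-sensing cells had 47.3 and 96.4 CPM in cold, against 152 and 52.8 CPM at RT, and overlapped.

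Hsph1 (chromosome 5, 149614287 to 149636376) rose in 3 classes. It had 70.0 and 63.1 CPM in cold fibroblasts, against 34.0 and 33.2 CPM at RT (log2 fold change 1.03, SE 0.13, adjusted p = 0.0237, edgeR). Dendritic cells had 86.2 and 89.0 CPM in cold, against 29.7 and 21.9 CPM at RT (1.76, SE 0.24, adjusted p = 0.0283), and NK cells 109 and 108 CPM, against 49.3 and 40.8 CPM (1.33, SE 0.30, adjusted p = 0.0364). Within each group the libraries were close and the groups did not overlap. In hormone-sensing cells Hsph1 was low, at 14.0 and 13.4 CPM in cold, against 17.1 and 29.3 CPM at RT (-0.67, interval -1.31 to -0.04, adjusted p = 0.592), below the RT libraries without a call. The fibroblast call ended without cold replicate 1 (0.91, adjusted p = 0.114), the dendritic call without RT replicate 1 (2.00) or RT replicate 2 (1.54) and at resolution 2 (1.95, adjusted p = 0.0626), and the NK call without RT replicate 2 (1.15, adjusted p = 0.262), without cold replicate 2 (1.34, adjusted p = 0.069), with doublets kept (1.01) and by DESeq2 (adjusted p = 0.798). Bag3 (chromosome 7, 128523616 to 128546981), which links HSP70 to selective autophagy, had 106 and 66.4 CPM in cold fibroblasts, against 76.0 and 64.0 CPM at RT, and overlapped. It was at or under 12.98 CPM in each library of B, T and NK cells.

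Hsp90aa1 (chromosome 12, 110690605 to 110702728) rose in 3 classes, by 0.99 to 1.11 on the log2 scale. It had 979 and 814 CPM in cold fibroblasts, against 402 and 459.7 CPM at RT (log2 fold change 1.11, SE 0.16, adjusted p = 0.0314, edgeR). Dendritic cells had 1384 and 1267 CPM in cold, against 683 and 571 CPM at RT (1.08, SE 0.14, adjusted p = 0.0281), and NK cells had 1264 and 949.5 CPM, against 575 and 559.9 CPM (0.99, SE 0.16, adjusted p = 0.00669). The cold libraries lay above the RT libraries in all 3 classes. In alveolar progenitors it stood at 315 and 469 CPM in cold, against 846 and 460.4 CPM at RT (-0.83, interval -1.65 to -0.02, adjusted p = 0.438). The fibroblast call ended without cold replicate 1 (0.93, adjusted p = 0.139) or RT replicate 1 (1.06, adjusted p = 0.0507). The dendritic call ended without RT replicate 1 (1.22) or RT replicate 2 (0.95), at resolution 2, with doublets kept (1.16, adjusted p = 0.073) and when clusters were formed without the lists (1.16, adjusted p = 0.0587).

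Hspb1 (chromosome 5, 135887919 to 135889563), a small heat shock protein that holds unfolded proteins, was low in immune classes, where the RT mean was 3.5 to 7.51 CPM in the 5 that were tested, against 46.9 to 1345 CPM in the 4 others. It rose in fibroblasts, with 98.7 and 131 CPM in cold, against 38.0 and 55.8 CPM at RT (log2 fold change 1.35, SE 0.20, adjusted p = 0.0314, edgeR). In vascular endothelium it had 1705 and 1629 CPM in cold, against 1459.9 and 1231 CPM at RT (0.34, adjusted p = 0.445), apart without a call. The fibroblast call ended without cold replicate 1 (1.52, adjusted p = 0.0796) and without cold replicate 2 (1.19, adjusted p = 0.0517).

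The mitochondrial chaperonin genes were called in none of the 9 classes. In fibroblasts Hspe1 (chromosome 1, 55088132 to 55091307) had 236 and 249 CPM in cold, against 219 and 273 CPM at RT, and Hspd1 (chromosome 1, 55077835 to 55088243) had 97.3 and 85.8 CPM in cold, against 87.3 and 103 CPM at RT. Both overlapped, with log2 fold changes of 0.03 (interval -0.28 to 0.34) and 0.00 (interval -0.32 to 0.32). In alveolar progenitors both were lower in cold, Hspe1 at 149 and 267 CPM, against 479 and 281 CPM at RT (-0.97, adjusted p = 0.395, edgeR), and Hspd1 at 102 and 136 CPM, against 289 and 171 CPM at RT (-1.04, adjusted p = 0.289). Without RT replicate 2 both were called there (Hspe1 -1.32, adjusted p = 0.0238; Hspd1 -1.40, adjusted p = 0.00757). Over the 9 classes Hspe1 lay between -0.97 and 0.41 and Hspd1 between -1.04 and 0.21, with 0 calls by edgeR for either. At an unadjusted p under 0.05 Hspe1 passed in 1 class and Hspd1 in 2, each time lower in cold, and DESeq2 called neither.

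**Figure D2:**
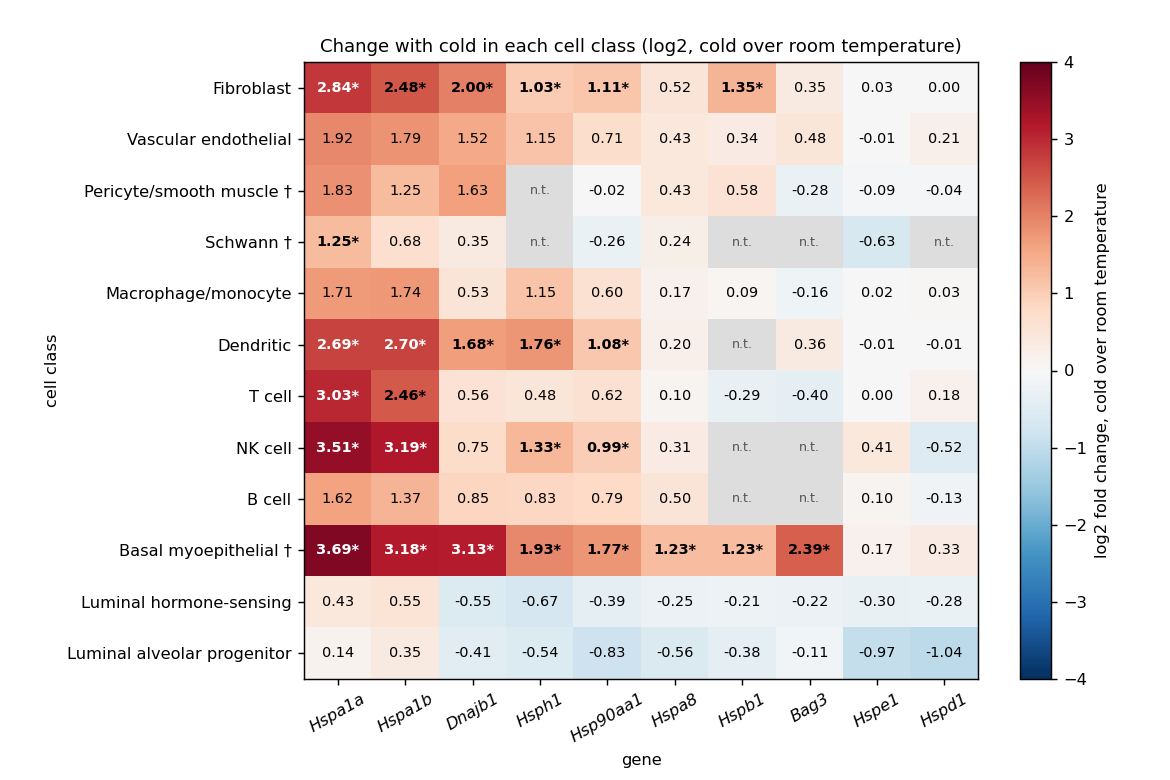
Log2 fold change, cold over RT, of each chaperone in each class (edgeR, colour and number); an asterisk marks an adjusted p under 0.05, n.t. a gene below the low-count filter, and a dagger a class with 18 or 19 cells in 1 library. Asterisks stand in the fibroblast, dendritic, T, NK, basal and Schwann rows, and none stands in either luminal row.

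Whether the cold effect differed between the 3 kinds of cells was tested on sums over the stromal, immune and epithelial cells in one fit with the library as block. The sums hold all named classes and also the clusters with markers of several types of the same compartment, 695 epithelial and 794 immune cells. The summed Hspa1a stood at 718 and 658 CPM in cold stroma, against 128 and 98.04 CPM at RT, at 1056 and 1035 CPM in cold immune cells, against 533 and 238 CPM at RT, and at 439 and 408 CPM in cold epithelium, against 329.6 and 219 CPM at RT. The stromal groups were the farthest apart and the epithelial ones the closest. The stromal effect exceeded the epithelial one by 1.89 for Hspa1a on the log2 scale (interval 1.34 to 2.43), by 1.54 for Hspa1b, 2.05 for Dnajb1, 1.38 for Hsph1 and 1.18 for Hsp90aa1. None of these passed over all genes (edgeR adjusted p = 0.112 for Hspa1a and Hspa1b, 0.145 for Dnajb1, 0.153 for Hsph1 and Hsp90aa1). Here 0 of 10 members and 0% of 15599 genes were called, with 7 members at an unadjusted p under 0.05, and DESeq2 called these 5. The stromal effect exceeded the immune one by 1.16 for Hspa1a (adjusted p = 0.165), again with 0 of 10 members and 0% of genes called, 5 members at an unadjusted p under 0.05 and 3 called by DESeq2. The epithelial effect was below the immune one by 1.41 for Hsph1 (difference -1.41, adjusted p = 0.1) and 0.87 for Hsp90aa1 (difference -0.87, adjusted p = 0.16, edgeR). Here 0 of 10 members and 0% of genes were called, with 6 members at an unadjusted p under 0.05 and 2 called by DESeq2. Among these 6, Bag3 went the other way, with the epithelial effect above the immune one by 0.68. Sums over the named classes alone, chosen after seeing the data, also gave 0 calls among 10 members for each difference by edgeR, with 7, 5 and 5 members at an unadjusted p under 0.05.

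These sums depend on the mix of classes. When each of the 9 tested classes was given equal weight, so that epithelium stood for the 2 luminal classes, the difference of stroma from immune cells was -0.17 for Hspa1a and -0.14 for Hspa1b, so its direction turned. The difference of stroma from epithelium stayed above 0, at 2.13 and 1.65, and that of epithelium from immune cells was -2.29 and -1.79. With equal weight over all 12 fitted classes, basal cells, pericytes and Schwann cells included, an alternative chosen after seeing the data, stroma minus epithelium was 0.67 for Hspa1a and 0.24 for Hspa1b. Stroma minus immune cells was then -0.57 and -0.70, and epithelium minus immune cells -1.24 and -0.94. These equally weighted values have no test. Without RT replicate 1, the stromal and epithelial effects differed with a call for Hspa1a (1.78, adjusted p = 0.0107), Hspa1b (1.61, adjusted p = 0.0161) and Hsph1 (1.77, adjusted p = 0.0225, edgeR). The epithelial and immune effects differed with a call for Hsph1 without RT replicate 1 (-1.62, adjusted p = 0.0417), and for Hsph1, Hspe1 and Hspd1 without RT replicate 2 (-1.17, -0.97 and -1.13). The stromal and immune effects differed for 0 members with any library left out.

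Set against single classes, the fibroblast effect differed from that of luminal alveolar progenitors for 3 of 10 members, where 0.404% of 12116 genes were called in either direction. The difference was 2.94 for Hspa1a (interval 1.90 to 3.97, adjusted p = 0.0212), 2.27 for Hspa1b (interval 1.37 to 3.18, adjusted p = 0.0271) and 2.50 for Dnajb1 (interval 1.54 to 3.45, adjusted p = 0.0271, edgeR). The Hspa1b difference was not called without cold replicate 2 (1.75, adjusted p = 0.0661) or with doublets kept (2.14), nor the Dnajb1 difference without cold replicate 1 (1.86, adjusted p = 0.149) or at resolution 2 (1.28). Over all alternatives 16 to 262 genes were called for this pair, so member counts with a library left out do not set the members against other genes. Against hormone-sensing cells the differences were 2.32 for Hspa1a (interval 1.58 to 3.05, adjusted p = 0.138), 1.96 for Hspa1b (adjusted p = 0.11), 2.45 for Dnajb1 and 1.53 for Hspb1. There 0 of 10 members and 0.0217% of 13828 genes were called by edgeR, with 7 members at an unadjusted p under 0.05, and DESeq2 called 5. The number of members called against hormone-sensing cells varied with the library left out. Over all alternatives 0 to 396 genes were called, so that number does not set the members against other genes. Without cold replicate 2 the Dnajb1 difference was 3.14.

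Against the immune classes the difference was called once, for Dnajb1. The fibroblast effect on Dnajb1 exceeded that in NK cells by 1.38 (interval 0.73 to 2.02, adjusted p = 0.0132, edgeR), the 1 member of 10 called, where 0.491% of 11400 genes were. That call ended without RT replicate 2 (1.05), without cold replicate 1 (1.12) and by DESeq2. The same difference was 1.48 against T cells (adjusted p = 0.107), 1.57 against macrophages (adjusted p = 0.0629) and 1.24 against B cells (adjusted p = 0.294). The difference for Hspa1a was -0.62 against NK cells (interval -1.35 to 0.11), -0.33 against T cells (interval -1.30 to 0.64) and 0.26 against dendritic cells (interval -0.15 to 0.67), each with an interval that holds 0. Against T cells 0 members and 0% of 12262 genes were called (3 members at an unadjusted p under 0.05, 1 called by DESeq2), against macrophages 0 members and 0.493% of 12779 genes (5 and 0), and against B cells 0 members and 0.0262% of 11454 genes (4 and 0). Against dendritic cells 0 members and 0.0941% of 11694 genes were called (1 and 0), and against vascular endothelium 0 members and 0.233% of 12037 genes (2 and 0). With RT replicate 1, RT replicate 2 or cold replicate 2 left out, the Dnajb1 difference from macrophages was 1.55, 1.46 and 2.05, in that order. Over all alternatives 4 to 507 genes were called against macrophages, 0 to 116 against B cells and 1 to 628 against endothelium.

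**Figure D3:**
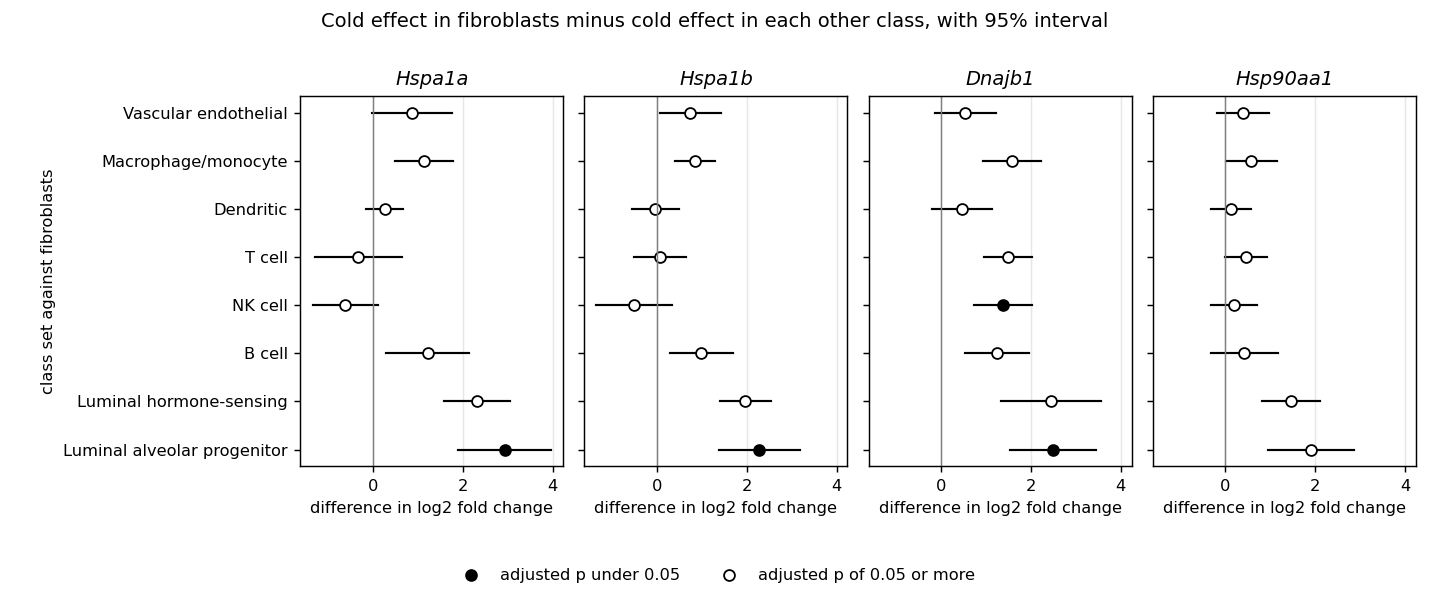
Difference in cold effect on the log2 scale, fibroblasts minus the class named on the vertical axis, for Hspa1a, Hspa1b, Dnajb1 and Hsp90aa1, with 95% intervals (edgeR); filled points have an adjusted p under 0.05. Filled points are Hspa1a, Hspa1b and Dnajb1 against alveolar progenitors and Dnajb1 against NK cells.

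The basal myoepithelial cells, the contractile outer layer of the duct, are the second epithelial layer. They numbered 29 and 19 in the cold libraries, against 53 and 93 in the RT libraries, under the number of cells set for a test, and were fitted after the data had been seen. In them 8 of 10 members rose, where 3.24% of 6382 genes did. Hspa1a had 1408 and 547 CPM in cold, against 79.7 and 79.4 CPM at RT (log2 fold change 3.69, SE 0.38, adjusted p = 8.12e-05, edgeR). Dnajb1 had 304 and 306 CPM in cold, against 27.1 and 43.1 CPM at RT (3.13, SE 0.26, adjusted p = 1.84e-05), and Bag3 had 187 and 197 CPM in cold, against 39.9 and 37.3 CPM at RT (2.39, SE 0.24, adjusted p = 7.83e-05). The cold libraries were several-fold above RT for each of these. Hspa1b rose by 3.18, Hsph1 by 1.93, Hsp90aa1 by 1.77, Hspa8 by 1.23 and Hspb1 by 1.23, while Hspe1 (0.17) and Hspd1 (0.33) overlapped. Without RT replicate 1 the calls of Hsph1 (1.82), Hspa8 (1.14) and Hspb1 (1.10) ended, and that of Hsph1 also without RT replicate 2 (2.04), without cold replicate 2 (0.88), with a replicate block (1.93, adjusted p = 0.0682, edgeR) and by DESeq2.

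The basal effect differed from that in hormone-sensing cells for the same 8 members, where 1.97% of 11566 genes were called. The differences were 3.45 for Dnajb1 (interval 2.51 to 4.401), 3.00 for Hspa1a (interval 2.17 to 3.83), 2.57 for Hspa1b, 2.57 for Hsph1, 2.55 for Bag3, 2.13 for Hsp90aa1, 1.42 for Hspa8 and 1.41 for Hspb1, with edgeR adjusted p between 8.64e-06 and 0.00745. Without cold replicate 1 the differences of Hspa8 (1.48) and Hspb1 (1.08) lost their calls, and without cold replicate 2 those of Hsph1 (1.495) and Hspa8 (1.35). DESeq2 did not call the difference of Hsph1 (adjusted p = 0.101). From the fibroblast effect the basal effect differed for 1 of 10 members, Bag3, where 1.61% of 11828 genes were called (fibroblasts minus basal -2.07, interval -2.77 to -1.36, adjusted p = 0.000546), and also for Dnajb1 without RT replicate 2 (-1.85, adjusted p = 0.0101). Beside the chaperones, 18 of 20 immediate early genes rose in basal cells and their summed level was 29822 and 19339 CPM in cold, against 3177 and 4548 CPM at RT. The part of that rise in the chaperone result was not tested.

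Pericytes and Schwann cells, with 18 cells in RT replicate 2 each, were also fitted after the data had been seen. Pericytes had 541 and 838 CPM of Hspa1a in cold, against 249 and 127 CPM at RT (log2 fold change 1.83, adjusted p = 0.234, edgeR). In pericytes edgeR called 0 of the 9 members tested and 0% of 3389 genes, with 4 members at an unadjusted p under 0.05 and 0 called by DESeq2. With each library left out in turn, the Hspa1a change in pericytes ranged from 1.495 to 2.47. In Schwann cells, the glia of peripheral nerves, Hspa1a rose, with 1506 and 749 CPM in cold, against 613 and 347 CPM at RT (1.25, SE 0.35, adjusted p = 0.0114), as 1 of the 6 members tested, where 2.79% of 968 genes rose. That call ended without cold replicate 1 (0.68), without RT replicate 2 (0.87), by DESeq2 and with doublets kept.

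The clusters within fibroblasts made up unlike shares of the groups. The cluster led by Cxcl13 held 445 of 718 and 251 of 464 fibroblasts in cold, against 308 of 1327 and 30 of 352 at RT. Within fibroblasts Hspa1a of both cold libraries stood above RT in 3 of the 4 clusters, by values with no test. Hspa1a stood at 911 and 781 CPM in cold, against 114 and 68.3 CPM at RT, in the cluster led by Cxcl13, and at 424 and 449.9 CPM, against 92.1 and 91.0 CPM, in the one led by Igfbp6 and marked by Pi16. In the cluster led by Col1a1 and Postn it stood at 606 and 463 CPM, against 123 and 112 CPM. In the small cluster led by Tnxb the libraries overlapped, at 303 and 0 CPM, against 231 and 278 CPM. Hsph1 overlapped in the Igfbp6 cluster, at 34.4 and 50.4 CPM in cold, against 37.8 and 36.2 CPM at RT. The log2 ratio of its group means (plus 5 CPM) was at most 0.71 in a fibroblast cluster, in the Cxcl13 one, where the class as a whole had a fitted change of 1.03. For Dnajb1 that ratio was 0.98 in the Igfbp6 cluster, beside a fitted change of 2.00 in the class. The part of the cluster mix in the class values was not tested. Hspa1a and Hspa1b of the cold libraries also lay above the RT libraries in the 5 of 8 clusters of macrophages and monocytes with at least 10 cells in each library, all 4 of T cells and all 3 of endothelium. In these 5 macrophage and monocyte clusters the log2 ratio for Hspa1a ran from 0.95 to 4.57. The one led by Chil3 had 2711 and 2865 CPM in cold, against 447 and 327 CPM at RT, near the dendritic level. In hormone-sensing cells the cluster led by Prlr overlapped, at 314 and 260 CPM in cold, against 304 and 191 CPM at RT. The cluster led by Upk3a did not, at 492 and 699 CPM in cold, against 349 and 202 CPM at RT, with 33 and 102 cells in cold and 301 and 29 at RT.

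**Figure D4:**
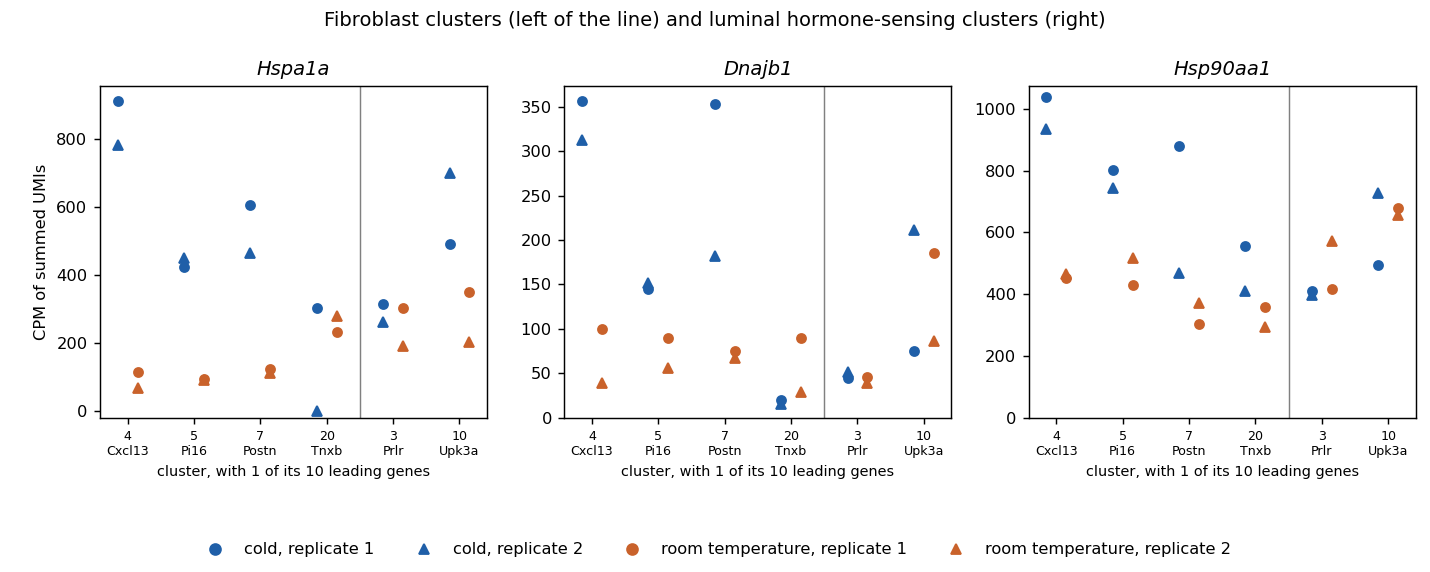
Level of Hspa1a, Dnajb1 and Hsp90aa1 (CPM of UMIs summed per cluster and library, linear axes) in the 4 fibroblast clusters, left of the line, and the 2 hormone-sensing clusters, right of it; each point is 1 library, blue for cold and orange for room temperature. Hspa1a is higher in both cold libraries in the clusters with Cxcl13, Pi16 and Postn and overlaps in the Tnxb and Prlr clusters.

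The share of cells with HSP70 RNA, and the amount in such cells, were both higher in cold fibroblasts. With each cell thinned to 2000 UMIs, 49.1% and 38.2% of cold fibroblasts had a UMI of Hspa1a, against 16.2% and 13.1% of RT fibroblasts, and cells with a UMI held 3.22 and 2.97 on average in cold, against 1.41 and 1.45 at RT. The unthinned shares were 67.0% and 55.4% in cold, against 41.7% and 44.3% at RT. In dendritic cells the thinned shares were 83.1% and 69.7% in cold, against 32.8% and 37.0% at RT, and in T cells 30.1% and 26.2%, against 7.52% and 1.9%. In hormone-sensing cells they overlapped, at 31.1% and 27.8% in cold, against 34.0% and 23.02% at RT. Both copies tended to be found in the same cells: among cold fibroblasts with a UMI of Hspa1a 36.8% and 44.5% had one of Hspa1b, against 16.3% and 18.5% of those without. At RT the same shares were 19.5% and 9.09% with and 7.92% and 7.22% without. No class could be taken to lack these genes, so none gave the share that free RNA in the droplets would produce.

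**Figure D5:**
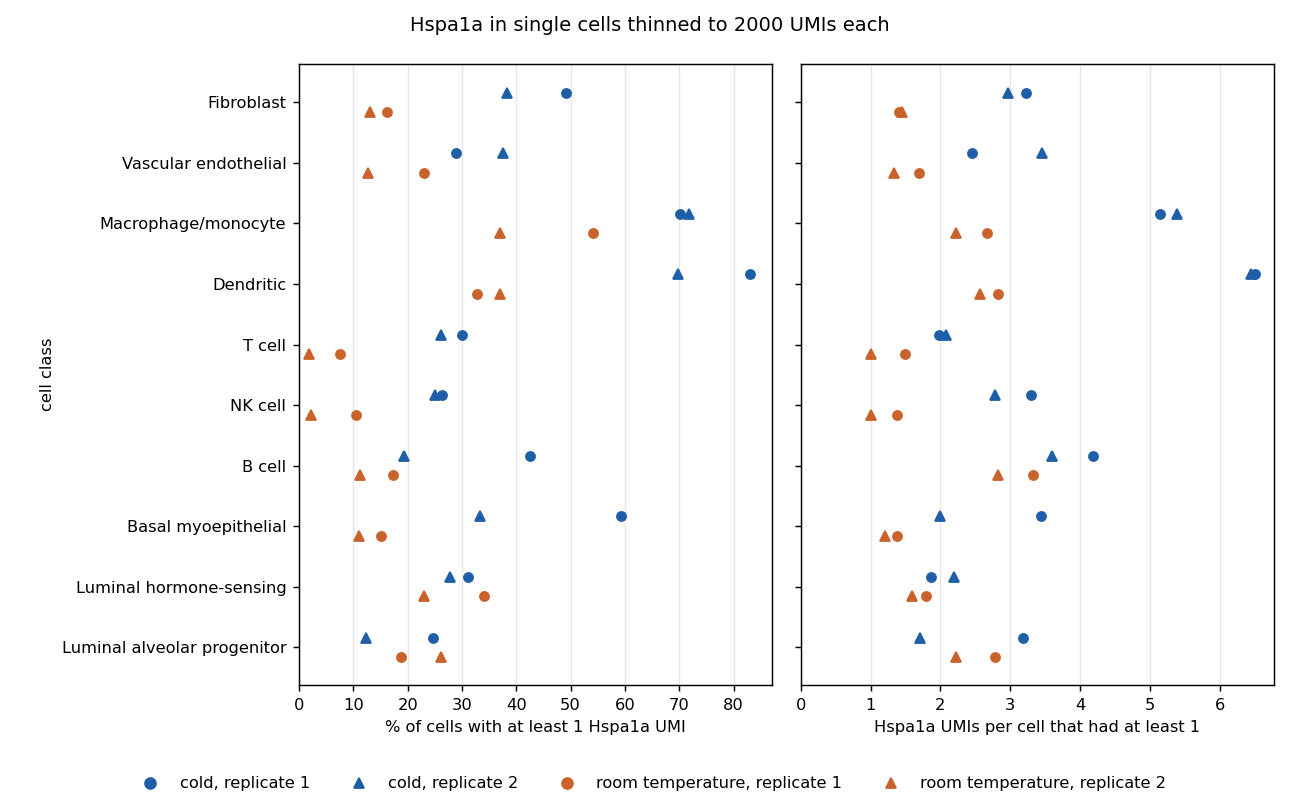
Share of cells with at least 1 UMI of Hspa1a (percent, left) and mean UMIs in the cells that had one (right), cells thinned to 2000 UMIs, in 10 classes; each point is 1 library, blue for cold and orange for room temperature. The share is 49.1% and 38.2% in cold fibroblasts, against 16.2% and 13.1% at RT, and overlaps in hormone-sensing cells.

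Other chaperone families had few calls. In fibroblasts edgeR called 1 of 31 further cytosolic and related chaperones tested (7 at an unadjusted p under 0.05, 2 called by DESeq2), Serpinh1, a collagen chaperone that resides in the endoplasmic reticulum. It fell, with 560.4 and 487 CPM in cold, against 1309.8 and 1535 CPM at RT (log2 fold change -1.39, adjusted p = 0.0232, edgeR). A list of 20 genes held chaperones of the endoplasmic reticulum and genes of its unfolded protein response. Of these, 5 fell in fibroblasts, where 1.44% of all genes tested did. Among them were the HSP90 paralogue Hsp90b1 (-1.06), the lectin chaperone Calr (-1.001) and the disulfide isomerases Pdia6 (-0.92) and Pdia4 (-0.90). The median over the reticulum list was -0.42 in fibroblasts, over the further cytosolic list 0.06. Subunits of the cytosolic chaperonin TRiC, mitochondrial chaperones other than the members, HSF1 with its regulators, and ubiquitin and proteasome genes had 0 edgeR calls in each of the 9 classes. In fibroblasts the genes of these lists at an unadjusted p under 0.05 numbered 0 of 7, 2 of 8, 0 of 3 and 2 of 12, in that order, and DESeq2 called 1, of the last list. In basal cells 3 of 27 cytosolic chaperones rose, the J-domain protein genes Dnaja4 (2.49) and Dnaja1 (1.57) and the HSP70 gene Hspa2 (1.58).

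Immediate early genes, which respond within minutes to stimuli and to dissociation, were called in some of the same classes. Of the 20 on the list, 7 rose in NK cells, led by Jun (2.34) and Rhob (2.16), 4 in dendritic cells, led by Jun (2.31) and Klf2 (1.43), and 1 each in fibroblasts (Dusp1, 1.49), T cells (Jun, 1.67) and B cells (Jun, 1.81), by edgeR. The summed level of the list in fibroblasts was 29445 and 24121 CPM in cold, against 18052 and 12971 CPM at RT, and in dendritic cells 20329 and 18186 CPM, against 12972 and 12390 CPM. In T cells it was 5814 and 4882 CPM in cold, against 5265 and 4724 CPM at RT, and overlapped. In macrophages it was 22893 and 23958 CPM, against 22929 and 18226 CPM, and in hormone-sensing cells 8542 and 12499 CPM, against 15457 and 8815 CPM. In alveolar progenitors the sum was lower in cold, at 7421 and 7393 CPM, against 11932 and 9524 CPM at RT. There edgeR called 0 of the 20, with 11 at an unadjusted p under 0.05 and 1 called by DESeq2. The median log2 fold change there was -0.70, with 3 of the 20 estimates above 0. In vascular endothelium edgeR called 0 of the 20, with 20 at an unadjusted p under 0.05, 13 called by DESeq2 and a median log2 fold change of 1.13, and the sum was 19267 and 19475 CPM in cold, against 10676 and 6490 CPM at RT. The part of these genes, and of handling after dissection, in the chaperone results was not tested. Over the 36 sums of 9 classes and 4 libraries, the genes outside the members whose log2 level was most like the mean of Hspa1a and Hspa1b were Zfp36 (Pearson r = 0.71), Jun (0.70), Ppp1r10 (0.67), Aldh9a1 (0.65), Khk (0.64) and Jund (0.63), of 6617 genes compared. Among the members, Dnajb1 had r = 0.54, Hspe1 -0.27 and Hspd1 -0.47. These points share libraries and classes and are given as a description.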

How the data were processed

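The authors deposited UMI counts per gene and cell barcode for 4 libraries, made with Cell Ranger 3.0.2 on mm10 (GRCm38), per the submitters' processing notes. Cells needed 500 detected genes or more and a mitochondrial share below 15%. Doublets were scored against simulated ones and removed at a rate proportional to the number of cells, and the rest were clustered on 2000 variable genes, 30 components and 15 neighbours (Leiden, resolution 1; scikit-learn 1.9.0, leidenalg 0.10.2). A cluster was named from at least 3 markers; mixed clusters (1489 cells) entered no class but counted in the sum of the compartment their types share, and unnamed ones (154 cells) were left out. Raw counts were summed per library and class and tested with edgeR 4.0.16 (TMM, filterByExpr, quasi-likelihood F-test, Benjamini-Hochberg adjustment over all genes at 0.05). Depth was 35198164 to 55160902 UMIs per library, and 2 libraries per group limit the precision. Differences between classes came from interaction terms with the library as block. The code was tested on simulated data. Alternatives were RLE scaling, DESeq2 1.42.0, all genes without the low-count filter, clusters without the lists, resolution 2, doublets kept, a replicate block, equal weights for the 9 tested classes and each library left out; sums over named classes alone and equal weights for 12 classes were chosen after seeing the data. The members and lists were chosen with earlier results of these data known. All 10 members are named; of other lists, up to 4 genes per class past the threshold with at least 20 CPM, by size of change; and the 6 genes of at least 20 CPM most like HSP70 over log2(CPM + 5).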

Additional observations from a re-analysis of the deposited data

Results flagged for a closer look

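The cold effect differed between classes, by an interaction test across all genes (edgeR), for these chaperones. Fibroblasts minus luminal alveolar progenitors gave 2.94 for Hspa1a, 2.27 for Hspa1b and 2.50 for Dnajb1 on the log2 scale, and fibroblasts minus NK cells gave 1.38 for Dnajb1. Basal myoepithelial minus luminal hormone-sensing cells, a pair chosen after the data had been seen, gave 3.45 for Dnajb1, 3.00 for Hspa1a, 2.57 for Hspa1b, 2.57 for Hsph1, 2.55 for Bag3, 2.13 for Hsp90aa1, 1.42 for Hspa8 and 1.41 for Hspb1. Fibroblasts minus basal cells, also chosen then, gave -2.07 for Bag3.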

How the results depend on the processing

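Over all settings, 2383 of the members' values were counted as unchanged, 147 gained a call and 50 lost one. A further 31 were counted as moved and 6 as turned in direction. Values counted as unchanged can still differ in sign. For Hspb1, epithelium minus immune cells was -0.058 in the main fit and 0.174 with equal weights for 12 classes. The equally weighted values are part of these counts and have no test. DESeq2 called 4 members in macrophages, 2 in NK cells, 1 in endothelium and 0 in Schwann cells. For differences it called 5 for stroma minus epithelium, 3 for stroma minus immune cells, 2 for epithelium minus immune cells, and for fibroblasts 5 against hormone-sensing cells, 1 against T cells and 0 against NK cells. Without the low-count filter 3 members were called in B cells, 3 in macrophages, 4 in T cells, 5 in endothelium and 2 in pericytes, 3 for stroma minus epithelium and 1 for epithelium minus immune cells. In that setting the fibroblast pairs gave 2 against B cells, 5 against alveolar progenitors, 6 against hormone-sensing cells, 3 against macrophages, 2 against T cells and 2 against endothelium. Resolution 2 left 2 in dendritic cells and gave 1 in alveolar progenitors, and keeping doublets gave 0 in Schwann cells and 1 against T cells. The shares of all genes called in these settings are not given here, so the counts do not set the members against other genes. Over all alternatives, up to 396 genes were called for fibroblasts against hormone-sensing cells, 507 against macrophages and 628 against endothelium. Counts over all genes moved more: edgeR called 259 in fibroblasts (16 to 1447 over the alternatives), 21 in dendritic cells (0 to 321), 57 in NK cells (17 to 155), 105 in T cells (58 to 1205), 16 in B cells (0 to 134), 14 in macrophages (1 to 1040), 0 in endothelium (0 to 456), 1 in hormone-sensing cells (0 to 56) and 31 in alveolar progenitors (0 to 516). The cause of these changes was not tested.

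With each library left out in turn, members called ranged from 1 to 6 in fibroblasts, 0 to 5 in dendritic, B and endothelial cells, 3 to 4 in NK cells, 2 to 5 in T cells, 0 to 2 in macrophages and alveolar progenitors, 5 to 8 in basal cells, 2 to 3 in pericytes and 0 to 1 in Schwann cells, and were 0 in hormone-sensing cells. The lone library of a group was then assumed to vary like the others. The shares of all genes called in these fits are not given here, so the ranges do not set the members against other genes. For differences the range was 0 to 3 for stroma minus epithelium and epithelium minus immune cells, 0 for stroma minus immune cells, 6 to 8 for basal minus hormone-sensing cells and 1 to 2 for fibroblasts minus basal cells. For fibroblasts it was 0 to 3 against B cells and endothelium, 0 against dendritic and T cells, 2 to 6 against alveolar progenitors, 0 to 6 against hormone-sensing cells, 0 to 2 against macrophages and 0 to 1 against NK cells. The value of Dnajb1, class B cell, ranged from -0.096 without cold replicate 1 to 1.43 without cold replicate 2, and that of Hsp90aa1, class B cell, from -0.042 to 1.31, turning direction without cold replicate 1. With equal weights for the 9 tested classes stroma minus immune cells turned to -0.17 for Hspa1a and -0.14 for Hspa1b, and with equal weights for 12 classes, chosen after seeing the data, to -0.57 and -0.70.

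The labels do not say whether same-numbered libraries shared a batch or day. Deviations of same-numbered libraries correlated between -0.382 in alveolar progenitors and 0.474 in macrophages, with -0.309 in hormone-sensing cells and 0.34 in dendritic cells. With 2 libraries per group and mixed signs, these correlations cannot tell whether the libraries were paired. The replicate block called 4 members in B cells, 5 in macrophages, 5 in T cells and 7 in fibroblasts. The shares of all genes called with a block are not given here. Over all alternatives, up to 134 genes were called in B cells, 1040 in macrophages, 1205 in T cells and 1447 in fibroblasts. The crossed replicate block, chosen after seeing the data, called 3 in alveolar progenitors. Each was lower in cold, Hsp90aa1 by a log2 fold change of -0.81, Hspe1 of -0.98 and Hspd1 of -1.02.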

Other observations

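Neutrophils were too few for a fit, with 39 and 22 cells in cold and 19 and 14 at RT, and their Hspa1a level was 30.3 and 64.0 CPM in cold, against 126 and 38.9 CPM at RT. Clusters with markers of more than 1 class entered no class, but counted in the sum of their compartment. In a luminal one led by Wfdc18 Hspa1a stood at 499 and 443 CPM in cold, against 334 and 242 CPM at RT. In a lymphocyte one led by Ccl5 it stood at 444 and 268 CPM in cold, against 59.5 and 10.6 CPM at RT, and in one led by Cxcr6 at 1650 and 1039 CPM, against 338 and 34.2 CPM.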
